A study of Homo sapiens with 6 samples.

Results

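Cholesterol and fatty acid synthesis genes were followed as 32 named genes of the sterol regulatory element-binding protein (SREBP) program, 20 of the sterol branch and 12 of the fatty acid branch, among the 30330 Ensembl genes in each deposited table. They were picked by symbol, with earlier results of these data known, and all 32 were found, each once. The libraries were RNA-seq of NCI-H1975, a human lung adenocarcinoma line, in 3 control libraries and in 3 libraries of H1975/OSI, a derivative selected with osimertinib, a drug that blocks the EGFR kinase. Selection stepped through 0.03, 0.1, 0.3, 1 and 3 µM over 7 months, per the labels, which title the resistant libraries Drug and leave it unsaid whether drug was present at harvest. Controls are described only as control, and no source used here ties the libraries of a group to separate cultures or clones, so p-values measure library-to-library spread only, and that spread may be technical.

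Cells make cholesterol from acetyl-CoA through mevalonate, farnesyl diphosphate, squalene and lanosterol, and make fatty acids from the same acetyl-CoA through malonyl-CoA, palmitate, and then elongation and desaturation. SREBF2 encodes the transcription factor that chiefly drives the sterol branch, and SREBF1 the one that chiefly drives the fatty acid branch. INSIG proteins hold the SREBP precursors and their escort SCAP in the endoplasmic reticulum when sterols are plentiful, and SREBPs act at promoters beside the factors NF-Y and Sp1.

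The deposited values are read counts divided by 1 factor per library, called normalized read counts here. Recovered depth was 15174126 to 16588479 reads per library, and members had between 61 and 7834 reads, so all 32 passed the filter on low values and none was near the floor of 3 reads. Resistant library 1 stood apart: the mean chi-square per gene against resistant 2 and 3 was 10.8 and 12.1, against 2.32 between those 2 and 2.42 to 3.67 among controls. The mitochondrial share of reads was 5.33 to 5.66% in resistant and 6.46 to 7.34% in control libraries. Of 7 epithelial and lung adenocarcinoma markers all were detected. The keratin KRT7 overlapped between groups, at 11963 to 14099 in resistant and 12757 to 13758 in control libraries. KRT8, KRT18 and KRT19 were lower in resistant libraries. KRT8 was at 15758 to 17181 against 22623 to 24002, KRT18 at 7430 to 7723 against 9953 to 10065, and KRT19 at 4872 to 7857 against 12552 to 13390. EPCAM was lower in resistant libraries, at 15.7 to 19.7 against 353 to 391. NKX2-1 and NAPSA were higher there, at 440 to 481 against 254 to 303 and at 24.9 to 37.7 against 14.5 to 23.9. Among 9 markers of other cell types, PTPRC and ADIPOQ were not in the tables. CD68, VWF, ALB and STAR were at 10.3 or less in every library, with groups that overlapped. The steroidogenic marker CYP11A1 was at 39.5 to 47.9 in resistant against 2.08 to 6.16 in control libraries. PLIN1 was at 8.88 to 22.4 against 2.89 to 6.16, and PECAM1 was lower, at 78.9 to 88.7 against 157 to 199. None of these markers was tested against the members. Because these are bulk libraries, a change in the share of cells and a change in RNA per cell cannot be told apart.

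Promoters of 29 of the 32 members were matched in RefSeq (GRCh38.p14), taking for each gene the start nearest the deposited 5′ end. No window was available for FASN, FDFT1 and SQLE, which all fell, so the motif counts leave them out. The 300-base windows, 250 before and 50 after the start, were searched on either strand for CCAAT (the NF-Y box), GGGCGG (the Sp1 box), CACGTG (an E-box) and TCACNCCAC (letters of a sterol regulatory element). CCAAT was present in 15 of 18 sterol windows and 5 of 11 fatty acid windows, against 34.6% of all 35116 windows. GGGCGG was present in 16 of 18 and 9 of 11, against 45% of all windows. CACGTG was found in 4 members (ELOVL5, INSIG1, LSS and SC5D; 7.26% of all windows), and TCACNCCAC in SREBF2 alone (1.13% of all windows). The 6 stretches below are the 200 bases before the start, 5′ to 3′ on the gene's strand, of a sterol gene that fell (HMGCS1, chr5:43313413-43313612, minus strand), the sterol sensor whose level split the resistant libraries (INSIG1, chr7:155297678-155297877, plus strand), the sterol gene that rose (SC5D, chr11:121292571-121292770, plus strand), the sterol regulator (SREBF2, chr22:41832905-41833104, plus strand), a fatty acid gene that fell (SCD, chr10:100347033-100347232, plus strand) and the fatty acid gene that rose (ACSL1, chr4:184825969-184826168, minus strand). Capitals mark every match to these 4 motifs that lies within the stretch, on either strand, and in INSIG1 and ACSL1 a pair of GGGCGG matches overlap.
HMGCS1: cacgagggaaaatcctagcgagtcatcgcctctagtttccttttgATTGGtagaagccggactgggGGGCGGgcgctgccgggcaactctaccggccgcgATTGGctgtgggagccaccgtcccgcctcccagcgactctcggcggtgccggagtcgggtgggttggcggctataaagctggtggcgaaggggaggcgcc
INSIG1: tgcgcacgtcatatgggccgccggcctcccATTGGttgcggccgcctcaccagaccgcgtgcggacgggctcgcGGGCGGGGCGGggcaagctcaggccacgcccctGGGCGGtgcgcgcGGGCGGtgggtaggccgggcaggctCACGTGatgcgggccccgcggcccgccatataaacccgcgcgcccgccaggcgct
SC5D: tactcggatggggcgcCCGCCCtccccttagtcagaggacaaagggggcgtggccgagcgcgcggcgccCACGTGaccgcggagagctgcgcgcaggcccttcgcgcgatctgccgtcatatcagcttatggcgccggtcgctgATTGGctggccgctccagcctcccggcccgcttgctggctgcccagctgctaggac
SREBF2: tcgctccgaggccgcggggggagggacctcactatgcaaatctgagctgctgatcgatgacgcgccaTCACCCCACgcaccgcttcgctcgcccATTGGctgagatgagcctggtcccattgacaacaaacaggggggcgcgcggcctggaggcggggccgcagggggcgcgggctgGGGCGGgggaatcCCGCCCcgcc
SCD: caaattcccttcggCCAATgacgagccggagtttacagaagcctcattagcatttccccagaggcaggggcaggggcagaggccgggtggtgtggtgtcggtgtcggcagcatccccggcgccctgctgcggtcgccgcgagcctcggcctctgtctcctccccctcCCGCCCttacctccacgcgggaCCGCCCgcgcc
ACSL1: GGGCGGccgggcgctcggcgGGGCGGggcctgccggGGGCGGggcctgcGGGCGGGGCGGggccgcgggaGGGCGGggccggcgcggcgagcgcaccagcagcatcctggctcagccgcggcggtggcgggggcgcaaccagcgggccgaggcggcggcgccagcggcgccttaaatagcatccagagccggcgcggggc
HMGCS1 carried 2 CCAAT boxes read on the opposite strand (ATTGG), and SREBF2 carried 1 beside its sterol element letters. SC5D, which rose, had an E-box and a CCAAT box, as INSIG1 did. The 300-base windows of LSS, which fell, and ELOVL5, which did not pass, held both as well. The ACSL1 stretch held 6 GGGCGG matches and no CCAAT. The start used lay 850 bases from the deposited 5′ end for ACSL1 and 318 for SC5D, so both stretches lie inside the deposited genes. For the other printed genes this distance was 26 to 109 bases. These matches describe letters in the windows and were not tested as binding sites.

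Fatty acid synthesis genes were lower in the resistant line along the whole route from acetyl-CoA to palmitate. In the sterol branch some members were lower, SC5D was higher and others did not pass the test. Of 12 fatty acid members, 9 fell, ACSL1 rose and 2 did not pass the test (limma-trend, Benjamini-Hochberg adjusted p under 0.05 over 24560 genes). Of 20 sterol members, 9 fell, SC5D rose and 10 did not pass. Across all genes tested, 21.1% were called lower and 20.4% higher. The sterol share of falls lay above that background and the fatty acid share further above it. That background was not matched to the members for read depth. Among the 18790 genes kept with a minimum value of 5, 5077 were called lower and 4830 higher. The median log2 fold change was -0.50 for the fatty acid and -0.25 for the sterol branch, against 0.01 over all genes tested. Falls of 0.5 or more on the log2 scale were seen in 6 fatty acid and 2 sterol members, against 13.4% of all genes. These medians and counts are a description, and the difference between the branches was not tested.

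**Figure D1:**
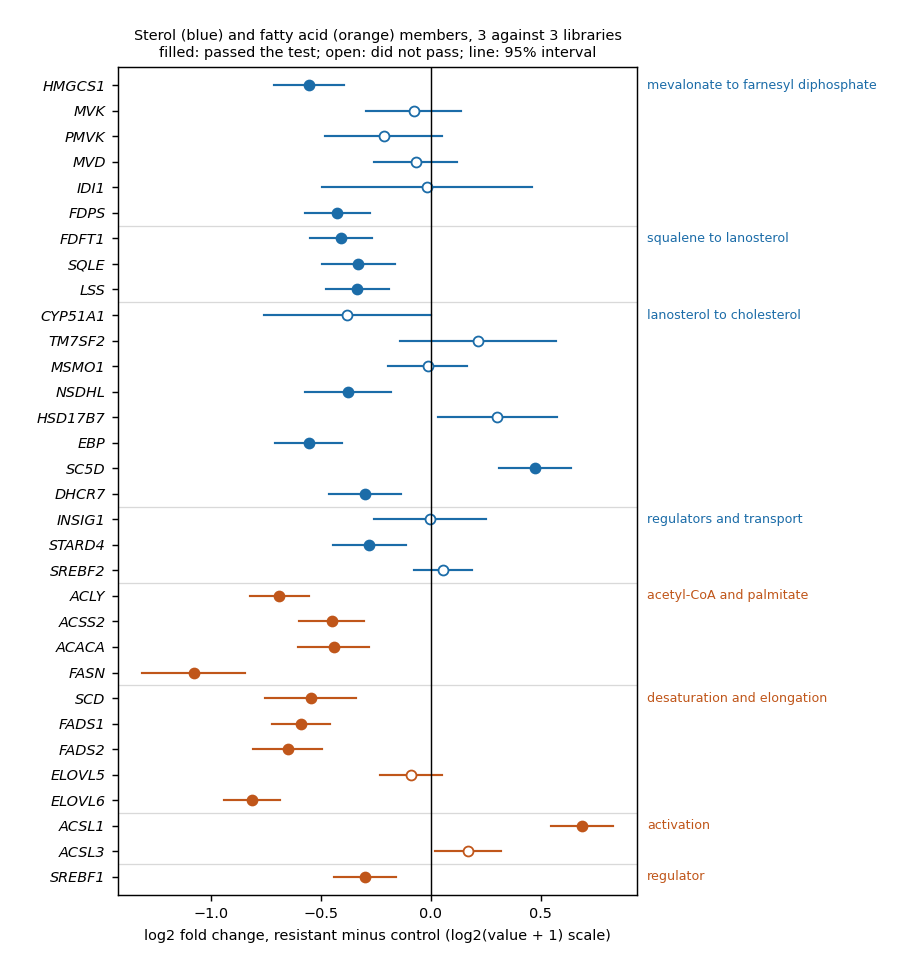
Log2 fold change of the 32 members in pathway order (horizontal axis, resistant minus control on the log2(value + 1) scale), with 95% intervals; filled points passed the test. The lowest value is FASN at -1.08 and the highest ACSL1 at 0.69.

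Genes that supply acetyl-CoA and build palmitate all fell. FASN (ENSG00000169710), the synthase that assembles palmitate, was at 2085, 2562 and 2705 normalized read counts in resistant libraries 1 to 3 and at 5628, 5464 and 4445 in controls 1 to 3. Every resistant library lay below every control (log2 fold change -1.08 ± 0.11 SE, adjusted p = 5.12e-06). ACLY, which splits citrate to cytosolic acetyl-CoA, was at 2668, 2969 and 2878 against 4753, 4636 and 4345. Its groups were also apart (-0.69 ± 0.07 SE, adjusted p = 5.13e-09). ACSS2, which makes acetyl-CoA from acetate and overlaps GGT7, was at 956.6, 978.4 and 924.4 against 1318, 1362 and 1233 (-0.45, adjusted p = 1.30e-05). ACACA, the carboxylase that makes malonyl-CoA, was at 887.2, 1050 and 1042 against 1442, 1324 and 1277 (-0.44, adjusted p = 5.85e-05). Resistant 1 was the lowest library for FASN, ACLY and ACACA, and without it their log2 fold changes were -0.97, -0.65 and -0.36, each still called lower.

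Among the members that desaturate or elongate fatty acids, SCD, FADS1, FADS2 and ELOVL6 fell and ELOVL5 did not pass. ELOVL6, which extends palmitate to stearate, was at 1909, 1865 and 1859 in resistant and at 3230, 3283 and 3388 in control libraries. The spread within either group was small beside the gap between them (-0.81 ± 0.06 SE, adjusted p = 1.59e-10). SCD, which introduces the first double bond into stearate and palmitate, was the member with the most normalized reads per kilobase of gene model in either group, 1002 in resistant and 1451 in control. It was at 6431, 4685 and 4999 against 8044, 7920 and 7377, with resistant 1 above the other 2 resistant libraries. Its log2 fold change was -0.55 (adjusted p = 3.77e-04), and -0.68 without resistant 1. FADS1 and FADS2, desaturases of polyunsaturated fatty acids that lie on opposite strands and overlap, both fell (log2 fold changes of -0.59 and -0.65, adjusted p = 5.61e-08 and 1.79e-07). FADS1 was at 1379, 1390 and 1398 against 2104, 2114 and 2055, and FADS2 at 954.6, 930.4 and 987.5 against 1507, 1657 and 1361. FADS2 also overlaps FEN1, a replication nuclease on its own strand, at a mean of 768 in resistant and 1621 in control libraries. How reads shared by these genes were assigned is not given in the sources used here. ELOVL5, an elongase of polyunsaturated chains, was at 2015 ± 135 against 2142 ± 92.9 (SD, n = 3 libraries each; log2 fold change -0.09, 95% interval -0.23 to 0.05, adjusted p = 0.322). It was called lower only under median centring (-0.22).

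Of the 2 acyl-CoA synthetases among the members, enzymes that activate free fatty acids, ACSL1 rose and ACSL3 did not pass. ACSL1 (ENSG00000151726) was at 1432, 1501 and 1430 against 876.9, 895.7 and 932.9, every resistant library above every control (0.69 ± 0.07 SE, adjusted p = 1.61e-08). ACSL3, a synthetase of lipid droplets and the endoplasmic reticulum, was at 1471, 1707 and 1734 against 1438, 1485 and 1434. Resistant 1 lay among the controls, and ACSL3 did not pass with all libraries (0.17, 95% interval 0.02 to 0.32, adjusted p = 0.0644). It was called higher without resistant 1 (0.25, adjusted p = 8.76e-04), with edgeR on recovered reads (0.17) and with quantile normalization (0.24).

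SREBF1 transcripts were lower and SREBF2 transcripts did not pass the test. SREBF1 was at 1969, 1833 and 1952 in resistant and at 2406, 2486 and 2197 in control libraries (-0.30 ± 0.07 SE, adjusted p = 8.22e-04). Gene-level values join its isoforms, and it overlaps RAI1 on the other strand. The call was lost with limma without trend (adjusted p = 0.0599). SREBF2 was at 3548, 3686 and 3578 against 3614, 3568 and 3227. The groups overlapped, and its log2 fold change was 0.06 with 95% limits of -0.08 and 0.19 (adjusted p = 0.522). With quantile normalization it was called higher by a small amount (0.16, adjusted p = 0.0368).

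**Figure D2:**
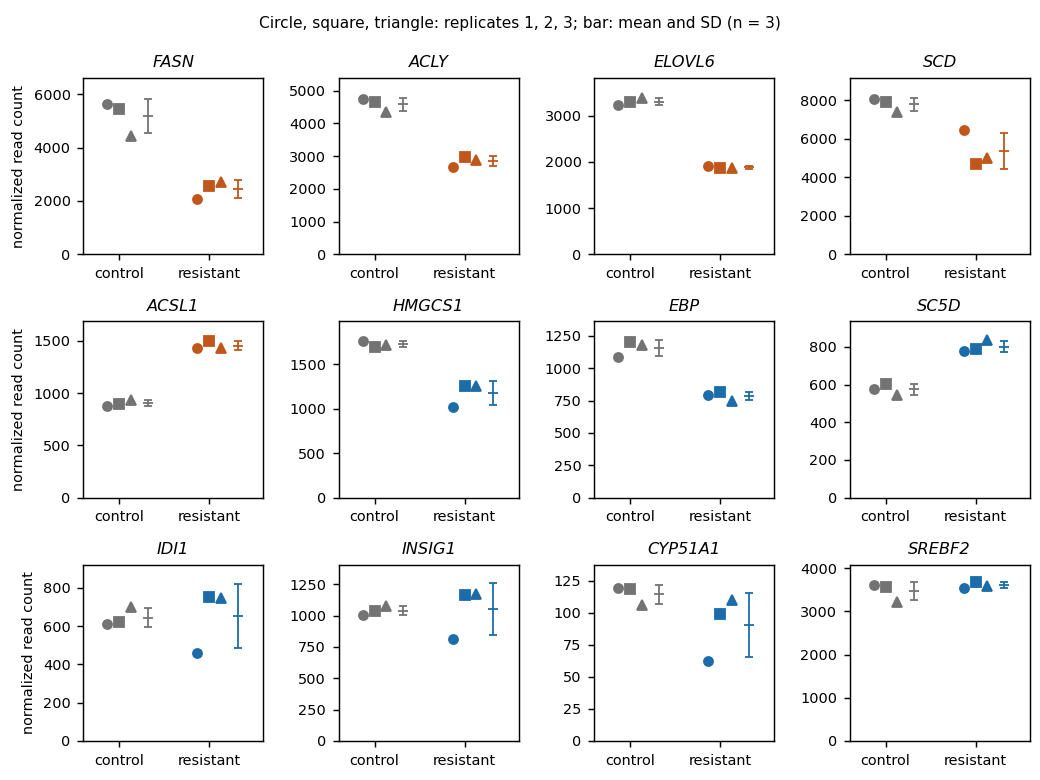
Normalized read counts (vertical axes, from 0) of 12 members in each of the 3 control and 3 resistant libraries, with mean and SD (n = 3). The groups are apart for FASN, ACLY, ELOVL6, SCD, ACSL1, HMGCS1, EBP and SC5D, and overlap for IDI1, INSIG1, CYP51A1 and SREBF2.

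In the sterol branch, the entry enzyme HMGCS1 fell while most of the mevalonate steps that follow it did not pass. HMGCS1 (ENSG00000112972), which condenses acetyl-CoA and acetoacetyl-CoA, was at 1022, 1254 and 1254 against 1762, 1692 and 1714 (-0.56 ± 0.08 SE, adjusted p = 2.53e-06). Resistant 1 was again the lowest, and the log2 fold change was -0.46 without it. FDPS, the farnesyl diphosphate synthase, was at 970.9, 1023 and 999.3 against 1302, 1450 and 1272 (-0.42, adjusted p = 3.63e-05). MVK and PMVK, the mevalonate and phosphomevalonate kinases, and MVD, the decarboxylase after them, had log2 fold changes of -0.08, -0.21 and -0.07. Their 95% intervals ran from -0.30 to 0.14, from -0.48 to 0.05 and from -0.26 to 0.12, so the HMGCS1 estimate of -0.56 lies outside all 3. The interval of HMGCS1 itself, -0.716 to -0.395, overlaps that of PMVK, and differences between these genes were not tested. PMVK in control 3 (367.2) lay with the resistant libraries, and PMVK was called lower without control 3 (-0.39, adjusted p = 0.00642) and under median centring (-0.35). IDI1, the isopentenyl diphosphate isomerase, was at 457.9, 750.4 and 746.8 against 613, 621.4 and 699.7. Resistant 1 was below all controls and the other 2 resistant libraries above all of them.

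All 3 enzymes from farnesyl diphosphate to lanosterol fell by similar amounts. FDFT1, the squalene synthase, was at 1205, 1300 and 1298 against 1648, 1656 and 1752 (-0.41, adjusted p = 2.47e-05). SQLE, the squalene epoxidase, was at 674.1, 710.7 and 753.7 against 889.2, 833.4 and 968.6 (-0.33, adjusted p = 0.00160). LSS, the lanosterol synthase, was at 1005, 1038 and 1026 against 1287, 1345 and 1239 (-0.33, adjusted p = 3.61e-04). In each of the 3 genes the groups were apart, and the SQLE call was lost with limma without trend (adjusted p = 0.0591).

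The 8 enzymes from lanosterol to cholesterol were split, with 3 lower, 1 higher and 4 not passed. EBP, the sterol isomerase, was at 793.4, 814.1 and 749.8 against 1090, 1202 and 1176 (-0.56 ± 0.07 SE, adjusted p = 1.20e-06). NSDHL, a C4 demethylation enzyme, was at 402.8, 352.6 and 436 against 508.3, 548.7 and 488.6 (-0.38, adjusted p = 0.00232). DHCR7, which completes cholesterol from its 7-dehydro precursor, was at 982.1, 1153 and 1129 against 1345, 1457 and 1215 (-0.30, adjusted p = 0.00384). The NSDHL and DHCR7 calls were lost with limma without trend (adjusted p = 0.0600 and 0.113), and that of DHCR7 also without control 2 (-0.24, adjusted p = 0.0533). SC5D (ENSG00000109929), the desaturase that acts between EBP and DHCR7, was instead at 780.2, 789.1 and 836.6 against 579.1, 603.7 and 546.5. All resistant libraries were above all controls (0.48 ± 0.08 SE, adjusted p = 2.52e-05).

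The enzymes of this stretch that did not pass were CYP51A1, TM7SF2, MSMO1 and HSD17B7. CYP51A1, the lanosterol demethylase, was at 62.21, 98.76 and 109.5 against 119.1, 118.5 and 106 (-0.38, 95% interval -0.76 to 0.001, adjusted p = 0.106). It was called lower under median centring (-0.51) and without resistant 3 (-0.54, adjusted p = 0.0338), and its value without resistant 1 was -0.14. MSMO1, the C4 methyl oxidase, was at 701.6, 857.4 and 897.7 against 786.5, 828.2 and 853.9, resistant 1 below all controls and resistant 2 and 3 above them (-0.01, 95% interval -0.19 to 0.17, adjusted p = 0.914). HSD17B7, a C4 ketoreductase with the transcribed pseudogene HSD17B7P2, was at 176.4, 211.4 and 167.7 against 143.8, 152.8 and 151.3. The pseudogene had a mean of 38.3 in resistant and 16.0 in control libraries. The HSD17B7 groups did not overlap, yet the gene missed the threshold (0.30, 95% interval 0.03 to 0.57, adjusted p = 0.0684). It was called higher without resistant 1 (0.33, adjusted p = 0.0478) or without resistant 3 (0.37, adjusted p = 0.0497). TM7SF2, a C14 sterol reductase that overlaps VPS51 on its own strand, was at 91.9 ± 2.81 against 79.6 ± 13.5 (SD, n = 3; 95% interval -0.14 to 0.57).

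Of the sterol branch's regulators and carriers, STARD4 fell and INSIG1 did not pass. STARD4, a soluble sterol carrier, was at 580.3, 563 and 609.7 against 694.1, 677.5 and 759.4 (-0.28, adjusted p = 0.00682), a call lost with limma without trend (adjusted p = 0.0688). INSIG1 was at 816.9, 1167 and 1174 against 1008, 1038 and 1077, with resistant 1 below all controls and the other 2 above all. Counting over all 32 members, the groups did not overlap with the resistant line lower for 18 and higher for 3, against 25.4% and 24.7% of all genes tested.

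Resistant library 1 was lower than resistant 2 and 3 for a set of sterol genes. It was the lowest resistant library for 13 of 20 sterol members and the highest for 0. For fatty acid members these counts were 6 and 3 of 12, and over all tested genes 34.7% and 38.9%. The gap on the log2 scale between resistant 1 and the mean of resistant 2 and 3 was -0.73 for CYP51A1, -0.71 for IDI1, -0.52 for INSIG1, -0.32 for MSMO1 and -0.30 for HMGCS1. Resistant 2 and 3 lay within 0.15 of each other for each of these 5 genes. Among sterol transport genes, ABCA1, the cholesterol efflux pump, was at 2017 in resistant 1 against 1199 and 1198 in resistant 2 and 3 and 1263 to 1358 in controls. MYLIP, a ligase induced by the sterol-sensing receptor LXR, was at 287.6 in resistant 1 against 172.6 and 201.3, and 187 to 248.5 in controls.

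Without resistant 1, the sterol branch kept 9 members called lower but had 4 called higher: SC5D, IDI1 (0.22, adjusted p = 0.0214), INSIG1 (0.17, adjusted p = 0.0351) and HSD17B7. The values with all libraries were -0.02 for IDI1 (95% interval -0.50 to 0.46) and -0.004 for INSIG1 (-0.26 to 0.25). The sterol median moved from -0.25 to -0.18, and the fatty acid median from -0.50 to -0.52. Per library, the median log2 difference from the control mean was -0.35, -0.17 and -0.18 for sterol members in resistant 1, 2 and 3. For fatty acid members it was -0.52, -0.50 and -0.54, and over all tested genes 0.02, 0.03 and 0.03. The part of library 1's general distance from the other libraries in these values was not tested.

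**Figure D3:**
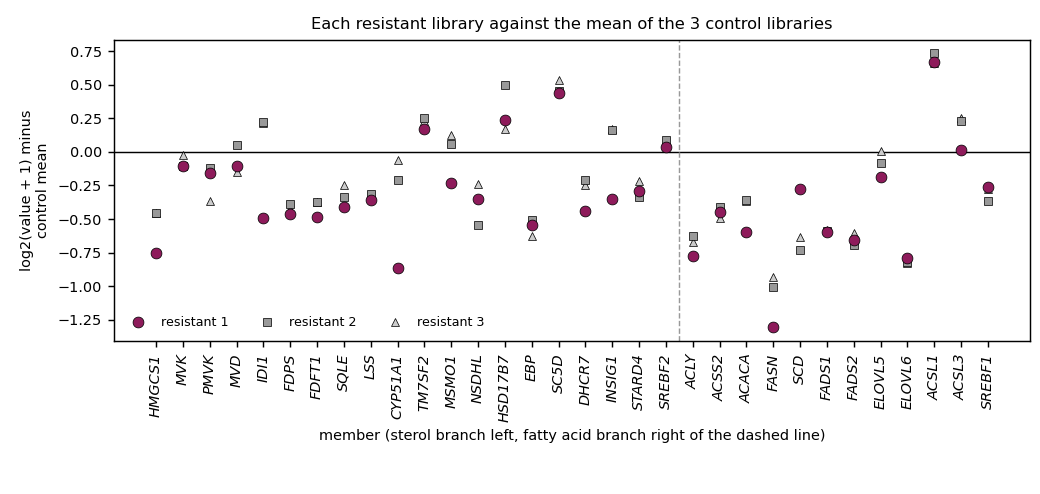
Each member's log2(value + 1) in resistant libraries 1, 2 and 3 minus the mean of the 3 control libraries. Resistant 1 lies below the others for CYP51A1, IDI1, INSIG1, MSMO1, HMGCS1 and FASN, above them for SCD, and together with them for ELOVL6, FADS1 and ACSL1.

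In 6 further lists of lipid genes, 68 of 69 genes were tested (ELOVL4 was not analysed here). Of these, 18 were called higher and 19 lower, shares above the 20.4% and 21.1% of all tested genes. That background was not matched to these lists for read depth. In the list of other sterol synthesis genes, GGPS1, a geranylgeranyl diphosphate synthase, rose (0.32; not called under median centring, 0.19). LBR, a nuclear membrane protein that is also a C14 sterol reductase, was at 907.6, 911 and 930.3 against 1870, 1842 and 1878 (-1.02 ± 0.07 SE, adjusted p = 9.68e-12). Its log2 fold change lay below the lowest of the 20 sterol members (-0.56), a difference that was not tested, while TM7SF2, which catalyses the same step as LBR, did not pass.

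Of 9 genes that process or restrain SREBPs, 4 were called higher, among them INSIG2, MBTPS1 and RNF139, and 1 was called lower. Across all tested genes 20.4% were called higher and 21.1% lower. INSIG2, the relative of INSIG1, was at 1936, 1399 and 1495 against 721.8, 683.8 and 772 (1.14 ± 0.10 SE, adjusted p = 2.06e-08). Per kilobase of gene model, the mean INSIG2 level was 408 in resistant and 184 in control libraries, beside 288 and 285 for INSIG1. MBTPS1, the site-1 protease that starts SREBP release, was at 4983, 5032 and 5060 against 3765, 3706 and 3614, and rose by a log2 fold change of 0.44 (adjusted p = 1.39e-06). RNF139, a ubiquitin ligase of the endoplasmic reticulum, rose by 0.31 but was not called under median centring (0.17) or with limma without trend. The escort SCAP (-0.11), the site-2 protease MBTPS2 (-0.13), SPRING1, an SREBP activator (-0.03), and MARCHF6, a ligase that degrades SQLE (-0.12), did not pass. SCAP, MBTPS2 and MARCHF6 were called lower under median centring (-0.25, -0.26 and -0.25), and MARCHF6 also without resistant 1 (-0.12, adjusted p = 0.0447).

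Several relatives of the fatty acid members were higher, and others lower. SCD5, the second stearoyl-CoA desaturase, was at 286.6, 316.6 and 325.6 against 107.8, 109.1 and 106 (1.51 ± 0.12 SE, adjusted p = 3.67e-10). Its level per kilobase was below that of SCD in either group, at 72.1 in resistant and 25.1 in control libraries. FADS3, the neighbour and relative of FADS1 and FADS2, was at 4856, 4094 and 3763 against 2325, 2344 and 2153 (0.89, adjusted p = 3.10e-09), and per kilobase it was above both in either group (674 and 362). ACACB, the mitochondrial carboxylase, rose by 0.58 and ELOVL3, an elongase of saturated chains, by 0.68, while ELOVL1 was called lower (-0.21), a call lost without control 2, without resistant 3, under limma without trend and under quantile normalization. HACD2, a dehydratase of the elongation cycle, rose from 1514 ± 32.3 to 2647 ± 309 (SD, n = 3). Among acyl-CoA synthetases, ACSL5 was at 459.9, 452.3 and 442.9 against 905.6, 986.2 and 940.6 (-1.06, adjusted p = 8.75e-11) and ACSL4 fell by 0.32, while ACSL1 rose. In all, 7 of 22 tested genes of this list rose and 5 fell, against 20.4% and 21.1% of all tested genes. Those that fell included MCAT of mitochondrial fatty acid synthesis (-0.68) and MID1IP1, a carboxylase activator (-0.48). TECR, an elongation cycle reductase (0.19), lost its call without control 1, control 3 or resistant 3, and both it and HACD1 (0.33) lost it under median centring and with limma without trend. ELOVL7 did not pass (0.54), but was called without control 1 (0.88).

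**Figure D4:**
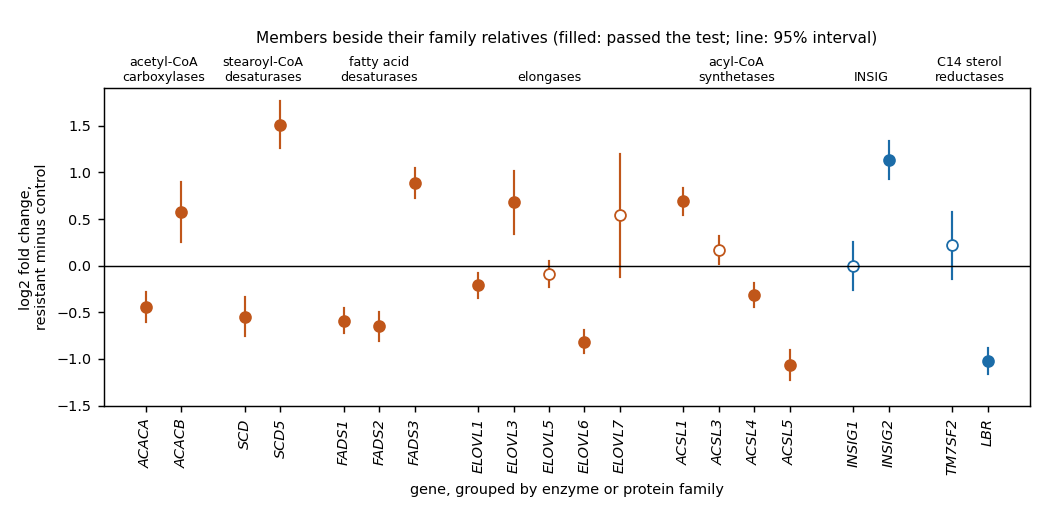
Log2 fold change with 95% interval (vertical axis) for members and related genes, grouped by family; filled points passed the test, and ELOVL2, with 4 reads or fewer in each library, is not drawn. SCD5 (1.51), FADS3 (0.89), ACACB (0.58) and INSIG2 (1.14) lie above 0 while SCD, FADS1, FADS2, ACACA and LBR lie below it.

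Lists next to these pathways were mixed, and their counts are to be read against the 20.4% of all tested genes called higher and the 21.1% called lower. Glycerolipid genes fell for 4 of 8 and rose for 2. GPAM, which starts triglyceride synthesis, was at -0.73 and LPIN1, a phosphatidate phosphatase, at -0.999. The 2 that rose were LPIN2 (0.49) and PNPLA2 (0.41). DGAT2 was called lower (-0.29), but not without control 2 or with limma without trend, and AGPAT2 (-0.40) not with limma without trend. PLIN2, a lipid droplet coat protein, was at 8379 in resistant 1, 5632 and 5643 in resistant 2 and 3, and 7581 to 7950 in controls. PLIN2 did not pass with all libraries (-0.28, adjusted p = 0.247) and was called lower without resistant 1 (-0.47). Fatty acid oxidation genes fell for 4 of 11 and rose for 3, with the trifunctional protein subunits HADHA and HADHB at -0.65 and -0.52 and the acyl-CoA dehydrogenase ACADM and the carnitine transferase CPT1A at -0.48 and -0.49. The 3 that rose were ACADVL (0.28), a dehydrogenase of very long chains, ETFDH (0.46), which passes electrons to ubiquinone, and ECI1 (0.34), an enoyl-CoA isomerase. The calls of CPT1A, ACADVL and ETFDH were lost with limma without trend. Sterol transport genes fell for 3 of 11 and rose for 1: SOAT1, which esterifies cholesterol, fell by 0.61 and NPC2, a lysosomal cholesterol carrier, rose by 0.72.

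ACLY, SCD and STARD4 lie in chromosome stretches where many neighbouring genes were also called lower. For each member, the 50 nearest tested genes were taken, 25 on either side (38 for IDI1 and 37 for LSS, near chromosome ends). The neighbours' median log2 fold change was -0.44 around ACLY (chromosome 17, 41866908 to 41930542), where 24 of 50 neighbours were called lower and 5 higher. It was -0.43 around SCD (chromosome 10, 100347124 to 100364834), with 26 lower and 6 higher, -0.34 around STARD4 (chromosome 5, 111496033 to 111512590), with 20 lower and 3 higher, and -0.22 around ACACA (chromosome 17, 37084988 to 37406818), with 14 lower and 2 higher. Over all tested genes 21.1% were called lower and 20.4% higher, so the count of lower neighbours around ACACA lay close to that background. STARD4 itself was at -0.28, near its neighbours' median. FASN (chromosome 17, 82078333 to 82098332) had a log2 fold change of -1.08 among neighbours with a median of -0.14, and ELOVL6 (chromosome 4, 110045846 to 110199199) one of -0.81 among neighbours with a median of 0.21. The neighbours' medians were 0.30 around LSS, 0.02 around EBP and 0.07 around both FDPS and FDFT1, which fell. Around other members that fell, they were -0.21 for DHCR7, -0.17 for HMGCS1, -0.15 for SQLE and -0.13 for SREBF1. For FADS1 and FADS2 they were -0.09, for ACSS2 -0.06 and for NSDHL -0.01. Around ACSL1 and SC5D, which rose, they were 0.23 and 0.22. Whether DNA copy number moved with these stretches was not tested.

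**Figure D5:**
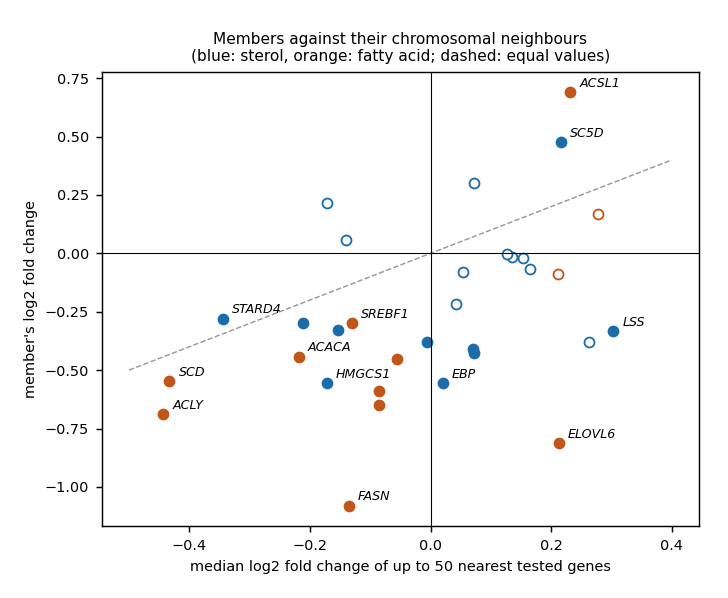
Each member's log2 fold change (vertical axis) against the median log2 fold change of up to 50 nearest tested genes (horizontal axis); filled points passed the test and the dashed line marks equal values. SCD and ACLY lie at the left with neighbours near -0.4, while ELOVL6 lies far below its neighbours.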

How the data were processed

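RNA-seq values came from 3 control and 3 resistant libraries. The authors deposited 1 table per library on GRCh38, per the submitters' processing notes. Aligner, counter and normalization tool are not given in the sources used here. Deposited signal values are whole multiples of 1 number per library for 100% of genes within 0.001 reads, so they are read counts divided by a factor, and whole reads were recovered. Precision is limited by 3 libraries per group.

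Values were taken as log2(value + 1), keeping the 24560 genes with a value of at least 1 in 3 or more libraries. Groups were compared with limma-trend (limma 3.58.1, R 4.3.3, robust empirical Bayes), two-sided, adjusted over all tested genes. The script was tested on simulated data. With 3 libraries a group, an exact permutation test of 1 gene cannot go below 0.1, so none was run. Because values were normalized, count tests (edgeR 4.0.16, DESeq2 1.42.0, limma-voom) were alternatives on recovered reads; the other alternatives changed scaling, filter, pseudocount, trend, block and libraries. The members, lists, motifs and naming rule (all members; listed genes called with an absolute log2 fold change of at least 0.5; SREBP regulators) were chosen with earlier results of these data known. Other genes named, among them ABCA1, MYLIP, PLIN2, GGPS1, MID1IP1, ACADVL, ETFDH, ECI1 and those with smaller changes, were chosen after their values were seen, as were the library 1 comparison and the chromosomal neighbours. Some genes of the further lists are counted in their totals but not reported here by name. Ensembl identifiers were paired with a symbol for 30078 of 30330 genes.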

Additional observations from a re-analysis of the deposited data

How the results depend on the processing

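Over 17 alternatives, 9 of the 10 called fatty acid members and 6 of the 10 called sterol members passed in the same direction throughout. Members lower were 5 in the sterol branch with limma without trend (9 as reported). Members higher in the sterol branch were 2 with quantile normalization, and 1 to 4 when single libraries were left out, 4 without resistant 1 and 2 without resistant 3. Fatty acid members higher were 2 with edgeR and with quantile normalization, and 1 to 2 with single libraries left out, 2 without resistant 1. The sterol median was -0.38 under median centring. The fatty acid median was -0.63 under median centring, -0.41 with quantile normalization and -0.54 to -0.48 with single libraries left out. With single libraries left out, IDI1 ran from -0.14 to 0.22 and INSIG1 from -0.092 to 0.17, each highest and called without resistant 1. Median centring moved the median of all genes from 0.01 to -0.12 and the split of calls from 5010 higher and 5194 lower to 3713 and 6666, and 29 genes of the further lists were then lower, against 19. Replicate numbers are shared between groups, but same-numbered libraries did not deviate together (correlations -0.00 to 0.01), so the numbers were not taken as pairs. With the replicate block, 9 sterol and 9 fatty acid members were lower, as without it, and 5003 genes were higher and 5172 lower; among the listed genes it changed the call of PLIN2 (-0.28, adjusted p = 0.0189). Depth limits ELOVL2, THRSP and ABCG1, with 5 reads or fewer in each library.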
